A study of Mus musculus with 16 samples.

Results

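The 32 genes described here are p53 itself (Trp53) and genes listed as p53 targets, picked by name from a table of 53333 gene rows. They were chosen by name and role rather than by a threshold on these data, though with earlier results of these data known. They were grouped by role into 5 genes of p53 and its feedback, 10 of growth arrest and survival, 12 of cell death and 5 of DNA repair. Each of the 32 had a row of counts, and all 32 passed the filter on low counts in the comparisons of lines. RNA depleted of ribosomal RNA was sequenced from mHiPPoE-2, a transformed line from mouse hippocampal neurons (strain Crl:CFW(SW)-024), with no treatment. The 16 libraries came from 8 lines or clones with 2 libraries each. The METTL3 KO line was 1 clone, edited with Cas9 in the gene of METTL3, which methylates adenosines in RNA (the mark N6-methyladenosine). RBM45 KO was represented by 2 clones lacking the RNA-binding protein RBM45. KO rescue was represented by 2 clones of RBM45 KO cells that carried a tagged RBM45 whose guide site was changed. The Cas9 control was represented by 2 clones that received Cas9 without a guide (their count columns match no label and were assigned by elimination), and WT cells were unedited. Every group thus shares the transformed background, and with 1 METTL3 KO clone an effect of the edit and a property of that clone cannot be told apart. Nothing in the labels says that the libraries of a line came from separate cultures, so the p-values reflect the spread among these libraries alone, which may be technical.

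p53 is a transcription factor that is held low by the ubiquitin ligase MDM2 and its relative MDM4, and Mdm2 is itself a p53 target, which closes a feedback loop. When DNA is damaged or a cell is otherwise stressed, p53 is stabilised and raises genes that stop the cell cycle, kill the cell or repair DNA. Hippocampal lines of this family were made with the large T antigen of a simian virus, a protein that binds p53, so the pathway in them need not behave as it does in neurons. In bulk RNA such as this, fewer cells of a type and less RNA per cell cannot be told apart.

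Libraries held 7193908 to 18751324 counts, of which 53.3% to 70.6% fell on 12 very abundant rows. Levels are given as CPM, counts scaled to a common library size with TMM normalisation. Mettl3 stood at 3.71 and 3.35 CPM in the 2 METTL3 KO libraries, against 8.07 to 11.7 CPM in the other 14. Rbm45 stood at 5.70 to 10.8 CPM in the RBM45 KO libraries. It stood at 21.1 to 25.9 CPM in the KO rescue libraries and at 12.8 to 16.7 CPM in the Cas9 controls. METTL3 KO had 10.58 and 10.91 CPM and WT 11.08 and 14.18 CPM. The highest RBM45 KO library, at 10.76 CPM, thus overlapped METTL3 KO. The Mettl3 check went the way of the labels, as did the Rbm45 check against the controls and the rescue. Of the neuron markers, Stmn2 and Dcx had no count in any library and Rbfox3 and Snap25 reached at most 0.0679 CPM, while Map2 was present at 39.7 to 138 CPM, so most defining markers of neurons were absent or nearly so. The first WT library stood apart from the second for several members (Plk2, Cdkn1a, Bbc3, Gdf15), and member calls against WT that were lost without it are named.

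Most p53 targets varied between the lines. A test of any difference among the 8 lines called 26 of the 32 members, where 57% of all genes tested were called (edgeR quasi-likelihood test, Benjamini-Hochberg adjusted p under 0.05, as for every call below). The 6 that did not pass were Rps27l, Sesn1, Bax, Pmaip1, Ei24 and Xpc. In 17 of the 32 members both METTL3 KO libraries stood above all 14 others, a pattern held by 9.94% of all genes. No member had both METTL3 KO libraries below all 14 others, a pattern held by 8.87% of all genes.

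**Figure D1:**
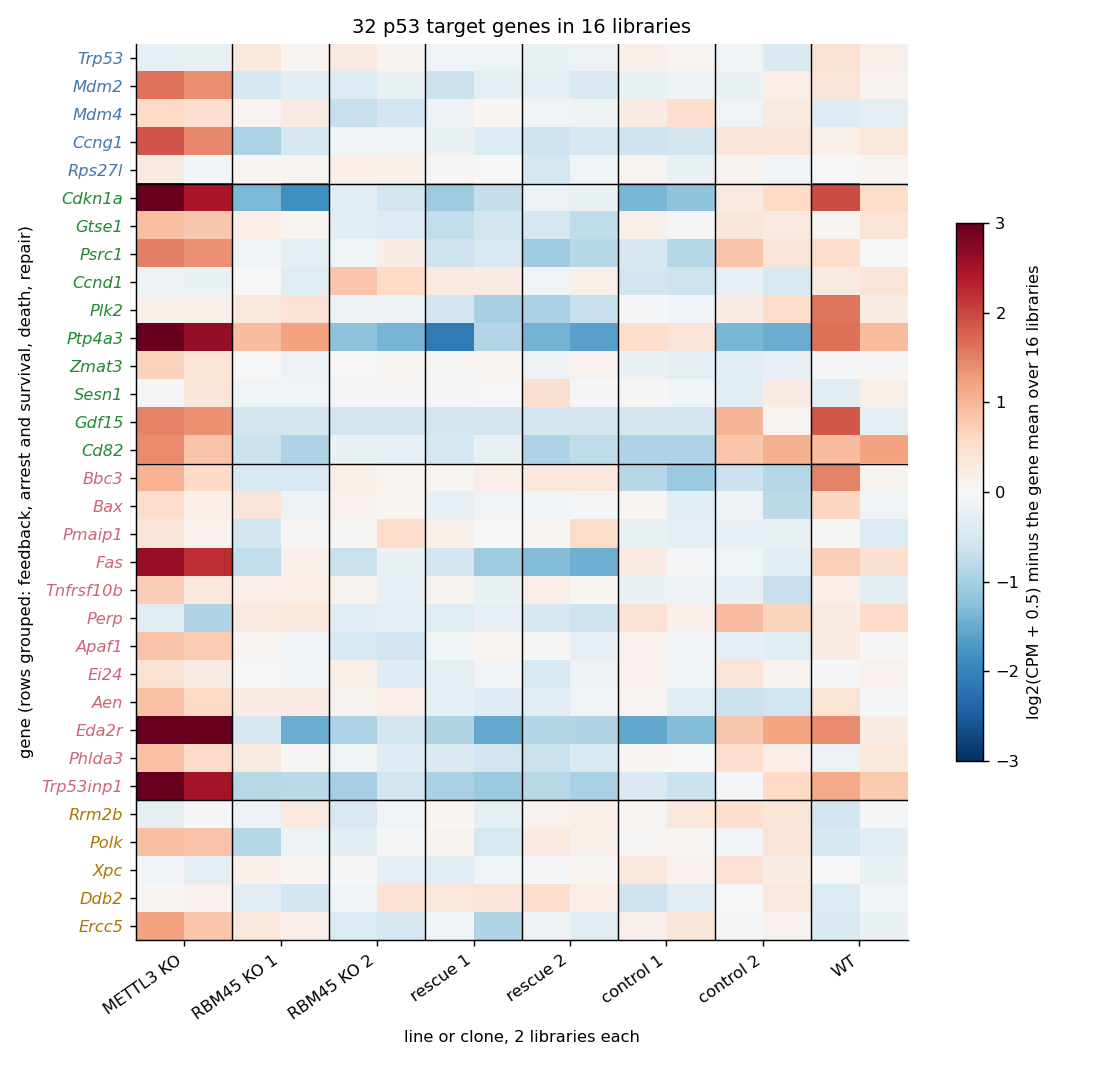
Level of each of the 32 genes (rows, grouped by role and coloured by it) in each of the 16 libraries (columns, 2 for each line), as log2(CPM + 0.5) minus the mean of that gene over all libraries, with colours capped at 3 in either direction. The 2 METTL3 KO columns are the reddest for Mdm2, Ccng1, Cdkn1a, Fas, Eda2r and Trp53inp1, and the first WT column is redder than the second for Plk2, Cdkn1a, Bbc3 and Gdf15.

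The METTL3 KO line differed from WT across all 4 roles. Of the 32 members, 16 were higher and 4 lower in METTL3 KO, where 11.2% of all genes were called higher and 11.8% lower. The median log2 change of the members was 0.57, against 0.01 over all genes tested. By role, 3 of the 5 feedback genes, 5 of the 10 arrest genes, 6 of the 12 death genes and 2 of the 5 repair genes rose, and the 4 that fell were Trp53, Ccnd1, Plk2 and Perp.

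Among the feedback genes, Trp53 fell against WT while its inhibitors and Ccng1 rose. Trp53 (GRCm38 chr11:69580359-69591873, plus strand) had 45.0 and 47.1 CPM in METTL3 KO, against 74.6 and 59.9 CPM in WT. Both METTL3 KO libraries lay below both WT libraries, and the log2 change was -0.54 ± 0.14 (SE, edgeR adjusted p = 0.0112). The call was lost without WT replicate 1, where the change was -0.38 (adjusted p = 0.137), and without either METTL3 KO library. Mdm2 (chr10:117688875-117710758, minus strand), the ligase that marks p53 for destruction, had 82.7 and 70.5 CPM in METTL3 KO, against 34.4 and 28.4 CPM in WT. The groups were far apart, with a log2 change of 1.29 ± 0.16 (adjusted p = 4.13e-05). Mdm4, which binds p53 and dampens its activity, had 66.8 and 62.6 CPM in METTL3 KO, against 33.5 and 36.7 CPM in WT (log2 change 0.88 ± 0.15, adjusted p = 0.000757). Ccng1 (chr11:40748552-40755311, minus strand), a cyclin that recruits a phosphatase to MDM2, had 84.8 and 61.8 CPM in METTL3 KO, against 25.2 and 28.7 CPM in WT. Its log2 change of 1.43 ± 0.16 had the smallest adjusted p of the 32 members (1.51e-05). Rps27l, a ribosomal protein paralog that binds MDM2, did not pass, with 29.2 and 22.4 CPM in METTL3 KO and 23.3 and 24.8 CPM in WT.

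Cdkn1a, Ptp4a3, Psrc1, Gtse1 and Zmat3 rose among the arrest and survival genes. Cdkn1a (chr17:29090976-29100727, plus strand) encodes p21, the inhibitor of cyclin-dependent kinases through which p53 halts the cell cycle. It had 56.9 and 37.9 CPM in METTL3 KO, against 26.8 and 9.79 CPM in WT. The groups did not overlap, but the WT libraries differed from each other by more than the METTL3 KO libraries did as a ratio, and the log2 change was 1.41 ± 0.29 (adjusted p = 0.00266). Without WT replicate 1 it was 2.26, so that this library moved the fold 1.80 times. Ptp4a3, a phosphatase that p53 induces, had 29.4 and 18.8 CPM in METTL3 KO, against 9.36 and 5.49 CPM in WT, with a log2 change of 1.72 ± 0.29 (adjusted p = 0.000648). Psrc1, a spindle protein, and Gtse1, which shuttles p53 out of the nucleus in G2, also rose, by log2 changes of 1.34 ± 0.30 and 0.60 ± 0.14. Zmat3, an RNA-binding zinc finger protein, rose with a log2 change of 0.54 ± 0.14. Gtse1 lost its call without WT replicate 1 (adjusted p = 0.0844), Psrc1 without WT replicate 2, and Zmat3 without WT replicate 1 (adjusted p = 0.068) or METTL3 KO replicate 1.

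Ccnd1 and Plk2 fell against WT. Ccnd1, cyclin D1, which drives cells through G1, had 92.3 and 91.1 CPM in METTL3 KO, against 126 and 136 CPM in WT (log2 change -0.52 ± 0.15, adjusted p = 0.0181). Plk2, a kinase of centriole duplication, had 41.5 and 41.6 CPM in METTL3 KO, against 114 and 43.5 CPM in WT. The fall of Plk2 rested on the first WT library: the log2 change was -0.91 ± 0.28 with it (adjusted p = 0.0246) and -0.07 without it (adjusted p = 0.859). Both calls were also lost without either METTL3 KO library, that of Ccnd1 without WT replicate 2 as well, and neither passed when the counts of exon bins were summed in place of the gene rows. Sesn1, which restrains growth signalling, and Cd82, a tetraspanin, did not pass, with log2 changes of 0.23 ± 0.23 and 0.03 ± 0.45. Gdf15, a secreted stress cytokine, had 1.57 and 1.40 CPM in METTL3 KO and 2.16 and 0.0999 CPM in WT, where the libraries lay far apart, and did not pass either (0.57 ± 0.80).

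The 3 largest rises over WT were those of the death genes Eda2r, Trp53inp1 and Fas. Eda2r (chrX:97333840-97377216, minus strand), a receptor of the tumour necrosis factor family, had 30.9 and 21.1 CPM in METTL3 KO, against 5.90 and 2.30 CPM in WT. Its log2 change was 2.73 ± 0.34 (adjusted p = 3.4e-05), and it was 3.48 without WT replicate 1, which moved the fold 1.68 times. Trp53inp1 (chr4:11156431-11174379, plus strand), a stress protein that acts with p53, had 52.9 and 32.9 CPM in METTL3 KO, against 12.5 and 9.59 CPM in WT, with a log2 change of 1.96 ± 0.23 (adjusted p = 2.36e-05). Fas (chr19:34290666-34327772, plus strand), the death receptor that starts the extrinsic pathway, had 21.9 and 16.8 CPM in METTL3 KO, against 5.61 and 4.69 CPM in WT. Its log2 change was 1.91 ± 0.26 (adjusted p = 8.35e-05), and in each of these receptors and regulators both METTL3 KO libraries exceeded both WT libraries. Apaf1, the scaffold of the apoptosome, Phlda3, an inhibitor of AKT, and Aen, a nuclease of dying cells, rose by less, with log2 changes of 0.69 ± 0.14, 0.63 ± 0.18 and 0.57 ± 0.18. Phlda3 lost its call without WT replicate 1 (adjusted p = 0.178) or METTL3 KO replicate 1, and Aen without WT replicate 2 or METTL3 KO replicate 1.

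Perp went the other way. This membrane protein (chr10:18845020-18857073, plus strand), which p53 induces in dying cells, had 17.8 and 12.2 CPM in METTL3 KO, against 27.4 and 34.6 CPM in WT. Its log2 change was -1.08 ± 0.18 (adjusted p = 0.000418), and it was called lower in each fit that left out 1 library. The pro-death BCL2 relatives gave no call with all libraries in the fit. For Bax, Bbc3 and Pmaip1, WT replicate 1 was the higher WT library, and their changes without it are not given. Bax had 25.2 and 19.7 CPM in METTL3 KO and 26.9 and 15.8 CPM in WT (log2 change 0.08 ± 0.25). Bbc3, which encodes PUMA, had 7.09 and 5.12 CPM in METTL3 KO and 9.93 and 3.50 CPM in WT (log2 change -0.10 ± 0.32), and Pmaip1, which encodes NOXA, had a log2 change of 0.48 ± 0.28. Bax and Bbc3 overlapped between the lines, while Pmaip1, at 6.30 and 5.30 CPM in METTL3 KO and 4.89 and 3.50 CPM in WT, did not overlap and still missed the threshold (adjusted p = 0.227). Tnfrsf10b, the mouse TRAIL death receptor, came nearest among the rest, with a log2 change of 0.64 ± 0.25 (adjusted p = 0.0689), and Ei24 had 0.27 ± 0.19. The Bax row also holds the counts of 2 genes joined to it (Dhdh and Gm45808).

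Of the repair genes, Ercc5 and Polk rose. Ercc5 (chr1:44147744-44181260, plus strand), the nuclease XPG of nucleotide excision repair, had 21.3 and 16.3 CPM in METTL3 KO, against 6.48 and 7.69 CPM in WT (log2 change 1.38 ± 0.23, adjusted p = 0.000452). Polk (chr13:96480690-96542579, minus strand), a DNA polymerase that copies past damaged bases, had 23.6 and 23.0 CPM in METTL3 KO, against 8.49 and 9.79 CPM in WT (log2 change 1.34 ± 0.23, adjusted p = 0.000709). For both genes the METTL3 KO libraries lay above the 14 other libraries. The damage sensors Xpc and Ddb2 and the ribonucleotide reductase subunit Rrm2b did not pass, with log2 changes of -0.07 ± 0.22, 0.33 ± 0.24 and 0.15 ± 0.22.

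**Figure D2:**
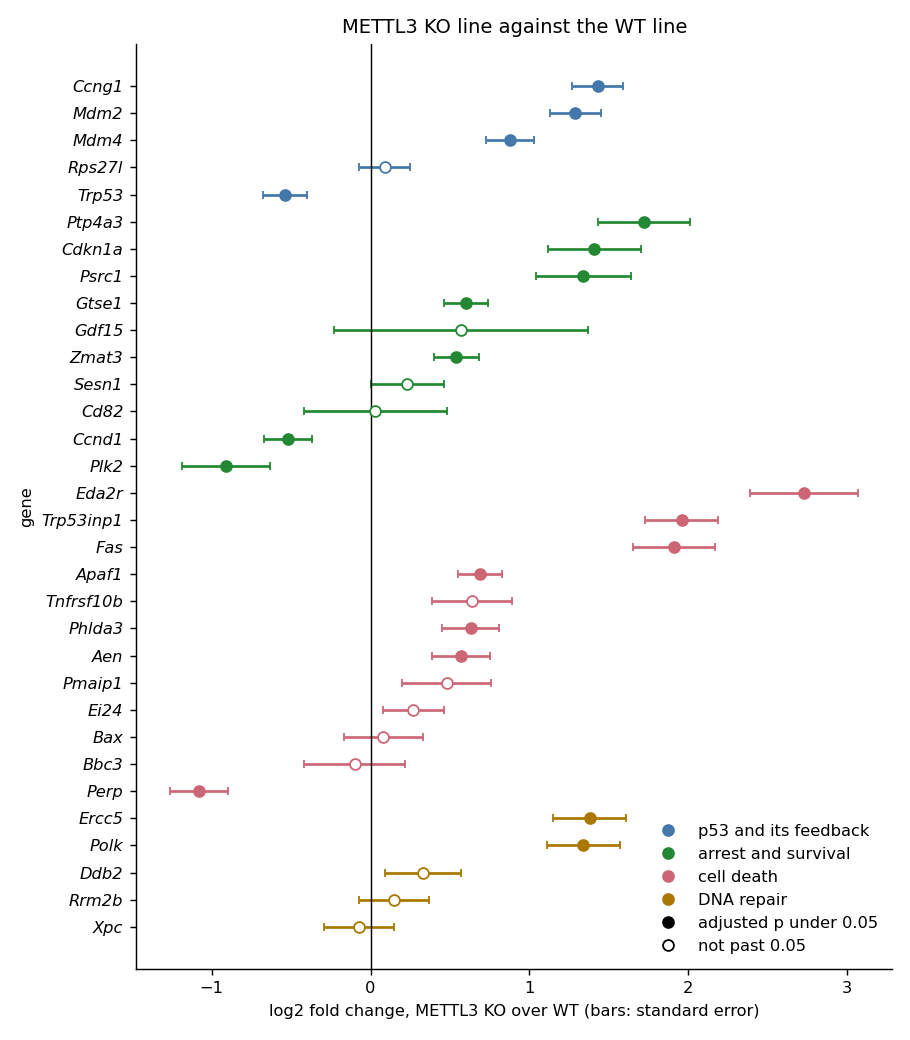
Log2 fold change of each gene in METTL3 KO over WT (points) with its standard error (bars), grouped by role and sorted within it; filled points passed an adjusted p of 0.05 over all genes. Eda2r lies farthest to the right at 2.73 and Perp farthest to the left at -1.08.

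How far the 20 calls depended on single libraries differed between members. Leaving out each of the 4 METTL3 KO and WT libraries in turn gave 14 to 17 calls, and 12 members were called in every such fit: Mdm2, Mdm4, Ccng1, Cdkn1a, Ptp4a3, Fas, Perp, Apaf1, Eda2r, Trp53inp1, Polk and Ercc5. Without WT replicate 1 there were 15 rises and 2 falls, and the rises then included members not called with all libraries. For 10 members the row overlaps a gene on the other strand (Mdm4, Cdkn1a, Ccnd1, Cd82, Bax, Apaf1, Ei24, Rrm2b, Polk and Ddb2). The kit does not mark strand, so reads of both genes cannot be told apart there. Other features of the libraries moved with the METTL3 KO line. The 12 very abundant rows held 56.8% and 53.5% of counts in METTL3 KO, against 68.5% and 64.6% in WT. The summed level of 5 neural progenitor markers was 148 and 173 CPM in METTL3 KO, against 305 and 303 CPM in WT, with 1 of 3 tested markers called lower. Nes was the progenitor marker that was called and carried the sum, at 115 and 136 CPM in METTL3 KO, against 271 and 265 CPM in WT. Sox2 was not called, with 18.45 and 18.9 CPM in METTL3 KO and 21.6 and 23.3 CPM in WT. Pax6 lay higher in METTL3 KO, at 14.85 and 17.5 CPM against 12.4 and 14.4 CPM in WT, and was not called. Hes5 and Fabp7 were too low to test in any line. The 5 astrocyte markers summed to 2.81 and 2.93 CPM in METTL3 KO, against 8.64 and 14.3 CPM in WT, and the 1 that could be tested, Slc1a3, was called lower. The 7 neuron markers summed to 80.6 and 88.1 CPM in METTL3 KO and 41.2 and 68.0 CPM in WT, nearly all of it Map2. Of the 2 that could be tested, 1 was called higher. The 6 mesenchymal markers summed to 542 and 515 CPM in METTL3 KO and 456 and 657 CPM in WT, but single markers moved in both directions. Col1a1 had 358 and 329 CPM in METTL3 KO, against 89.2 and 121 CPM in WT (log2 change 1.71 ± 0.17), and Col1a2 (1.37 ± 0.46) and Pdgfrb (0.84 ± 0.16) were called higher as well. Acta2 had 86.7 and 93.5 CPM in METTL3 KO, against 312 and 474 CPM in WT (-2.12 ± 0.25), and Thy1 was also called lower (-4.71 ± 0.48). The 5 oligodendrocyte markers summed to 44.9 and 44.0 CPM in METTL3 KO and 41.7 and 50 CPM in WT, and 0 of 3 tested were called. The 5 immune markers summed to 38.3 and 36.6 CPM in METTL3 KO and 61.6 and 44.4 CPM in WT. Of these, 2 of 3 tested were called lower. The 4 endothelial markers summed to 2.25 and 1.71 CPM in METTL3 KO and 3.45 and 2.30 CPM in WT, and 1 of 2 tested was called lower. The part of these differences in the changes of the p53 targets was not tested.

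The promoters of the members were searched for the p53 half-site consensus, since p53 binds DNA as a pair of half-sites of 10 bases. An element was taken as 2 half-sites no more than 13 bases apart with at most 2 mismatches in all and the central C and G of each half-site kept; the consensus is its own reverse complement, so both strands were covered. RefSeq windows from 250 bases before to 50 bases after a start (GRCm38.p6) matched 22 of the 32 members. An element lay in a window of 6 of these 22, against 1272 of 27025 genes (4.71%) with a window. A gene counted if any of its windows held an element. The number of windows per gene was not matched between the members and all genes, which had 32851 windows together. The windows of Ccng1 and Cdkn1a are shown up to the start because both genes rose in METTL3 KO and their elements lie upstream of the start; capitals mark the half-sites. The Ccng1 sequence lies at chr11:40755287-40755536 on the minus strand and the Cdkn1a sequence at chr17:29090729-29090978 on the plus strand.
Ccng1: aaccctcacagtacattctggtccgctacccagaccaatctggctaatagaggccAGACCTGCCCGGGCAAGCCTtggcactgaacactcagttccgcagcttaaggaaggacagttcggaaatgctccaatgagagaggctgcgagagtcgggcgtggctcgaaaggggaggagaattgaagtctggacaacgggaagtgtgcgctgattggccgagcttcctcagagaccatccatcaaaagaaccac
Cdkn1a: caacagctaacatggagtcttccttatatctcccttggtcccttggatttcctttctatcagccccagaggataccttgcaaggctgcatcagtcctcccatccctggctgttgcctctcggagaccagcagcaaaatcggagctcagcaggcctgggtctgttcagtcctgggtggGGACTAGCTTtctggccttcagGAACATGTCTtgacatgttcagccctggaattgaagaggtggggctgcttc
The elements of the other 4 members are shown alone, again with half-sites in capitals. That of Gtse1 lies at chr15:85859945-85859964 on the plus strand, that of Rps27l at chr9:66946296-66946315 on the plus strand, that of Bax at chr7:45467079-45467099 on the minus strand and that of Sesn1 at chr10:41887253-41887275 on the plus strand.
Gtse1: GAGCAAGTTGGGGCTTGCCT
Rps27l: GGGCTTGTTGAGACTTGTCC
Bax: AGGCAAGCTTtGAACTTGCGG
Sesn1: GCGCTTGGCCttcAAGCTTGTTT
Where several pairs in a window met the rule, the one with the fewest mismatches is marked. The Cdkn1a element matched without a mismatch across a gap of 12 bases. Its second half-site also forms a pair with the 10 bases that follow it, with no gap and 1 mismatch. Those of Ccng1, Gtse1 and Rps27l had 1 mismatch and no gap, and those of Bax and Sesn1 had 2 mismatches. Cdkn1a (chr17:29093519-29093818), Gtse1, Rps27l and Sesn1 each also had a window without an element. Of the 6 members with an element in a window, 3 were higher in METTL3 KO (Ccng1, Cdkn1a and Gtse1), and of the 16 with a window and no element, 10 were higher. A match describes the letters of these windows, and no match says nothing of sites elsewhere in a gene.

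Exon bins gave no member whose exons changed apart from their gene. In METTL3 KO against WT, 173 bins of 25 members could be tested and 0 passed, where 0.0137% of all bins passed; 7 had an unadjusted p under 0.05, as did 2.85% of all bins, and the smallest adjusted p of a member bin was 0.971. In RBM45 KO against the Cas9 controls and in KO rescue against RBM45 KO, 170 bins of 24 members were tested and 0 passed in either, where 0.0464% and 0.0341% of all bins passed. There, 4 and 2 member bins had an unadjusted p under 0.05, as did 2.44% and 2.65% of all bins. The exon tests fitted single libraries, so their spread was between the libraries of a line or clone and clones were not the units.

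Mdm2 is shown by bin because it is known to start either at a constitutive promoter or at a p53-responsive one in its first intron; these bins were chosen after their values were seen. The tested bin nearest to the 5′ end of the gene (bin 27, chr10:117710552-117710685, minus strand) had 1.99 and 2.58 CPM in METTL3 KO and 1.97 and 1.61 CPM in WT. The next tested bin (bin 23, chr10:117709946-117710022) had 5.71 and 5.80 CPM in METTL3 KO, against 2.82 and 2.51 CPM in WT. In bin 21 (chr10:117709718-117709784) the METTL3 KO libraries had 6.24 and 6.58 CPM, against 2.25 and 1.41 CPM in WT. The first of these bins thus barely separated the lines while the others did. Relative to the whole gene its log2 change was -0.95 ± 0.38, with an unadjusted p of 0.0148 and an adjusted p of 1 in edgeR's diffSpliceDGE, so the difference between bins did not pass.

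**Figure D3:**
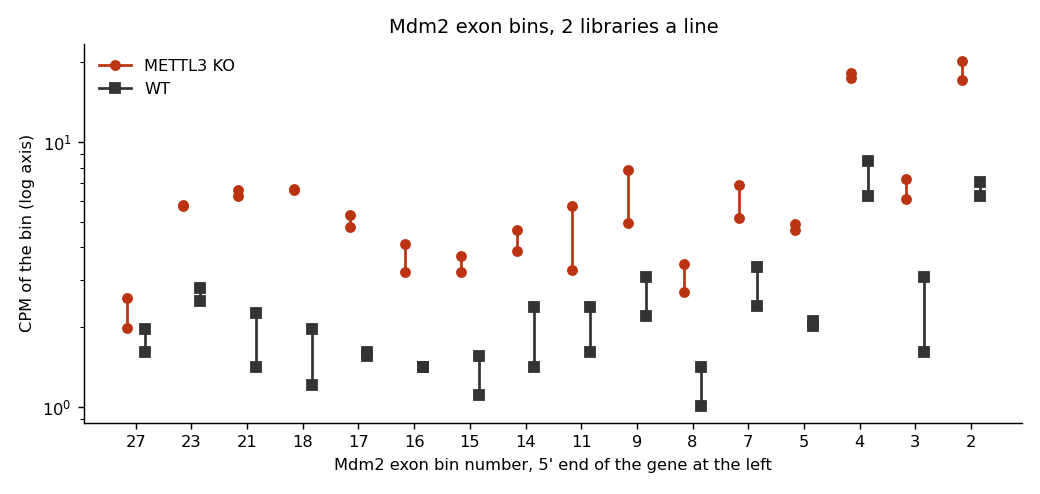
CPM (log axis) of each tested Mdm2 exon bin in the 2 METTL3 KO libraries (circles) and the 2 WT libraries (squares), with the 5′ end of the gene at the left and a line joining the libraries of a group. In bin 27 the groups nearly touch at 1.99 and 1.97 CPM, while in bin 21 they lie at 6.24 and 6.58 CPM in METTL3 KO and at 2.25 and 1.41 CPM in WT.

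Other genes of the pathway were followed as lists beside the members. Of 17 regulators of p53 such as Atm, Chek2 and Ppm1d, 15 could be tested, and 0 were higher and 1 lower in METTL3 KO than in WT, where 11.2% of all genes were called higher and 11.8% lower. The one called lower was Cdkn2a, at 55.4 and 45.2 CPM in METTL3 KO, against 97.9 and 67.8 CPM in WT (log2 change -0.72 ± 0.20, adjusted p = 0.0143). The products of Cdkn2a include ARF, which holds MDM2 off p53, but the row counts the whole gene and does not separate its products. The Cdkn2a call was lost without WT replicate 1 (log2 change -0.44) or METTL3 KO replicate 2 (-0.59). Of 21 further p53 targets tested, 6 were higher and 3 lower against the same shares of all genes, with a median log2 change of 0.26 against 0.01 over all genes. Ephx1, an epoxide hydrolase, rose most firmly among them, with 53.4 and 39.3 CPM in METTL3 KO, against 18 and 12 CPM in WT (log2 change 1.64 ± 0.24, adjusted p = 0.000191). Ak1, adenylate kinase, rose with a log2 change of 0.93 ± 0.19. Plk3, a stress kinase, had 4.84 and 4.27 CPM in METTL3 KO, against 25.1 and 6.99 CPM in WT, and its lower call rested on the first WT library: the log2 change was -1.77 ± 0.38 with it (adjusted p = 0.00315) and -0.64 without it (adjusted p = 0.101).

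Of 14 cell-cycle genes that are known to fall when p53 is active, 6 were lower in METTL3 KO than in WT, 0 were higher and 8 were not called, where 11.8% of all genes were lower and 11.2% higher. Their median log2 change was -0.41, against 0.01 over all genes. Cdc20, the activator of the anaphase-promoting complex, had 22.3 and 23.7 CPM in METTL3 KO, against 51.4 and 47.0 CPM in WT (log2 change -1.09 ± 0.15, adjusted p = 7.56e-05). Cdk1, the mitotic kinase, and Foxm1, a transcription factor of G2 genes, fell with log2 changes of -0.63 ± 0.12 and -0.60 ± 0.12. The 14 genes summed to 356 and 374 CPM in METTL3 KO, against 496 and 535 CPM in WT.

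**Figure D4:**
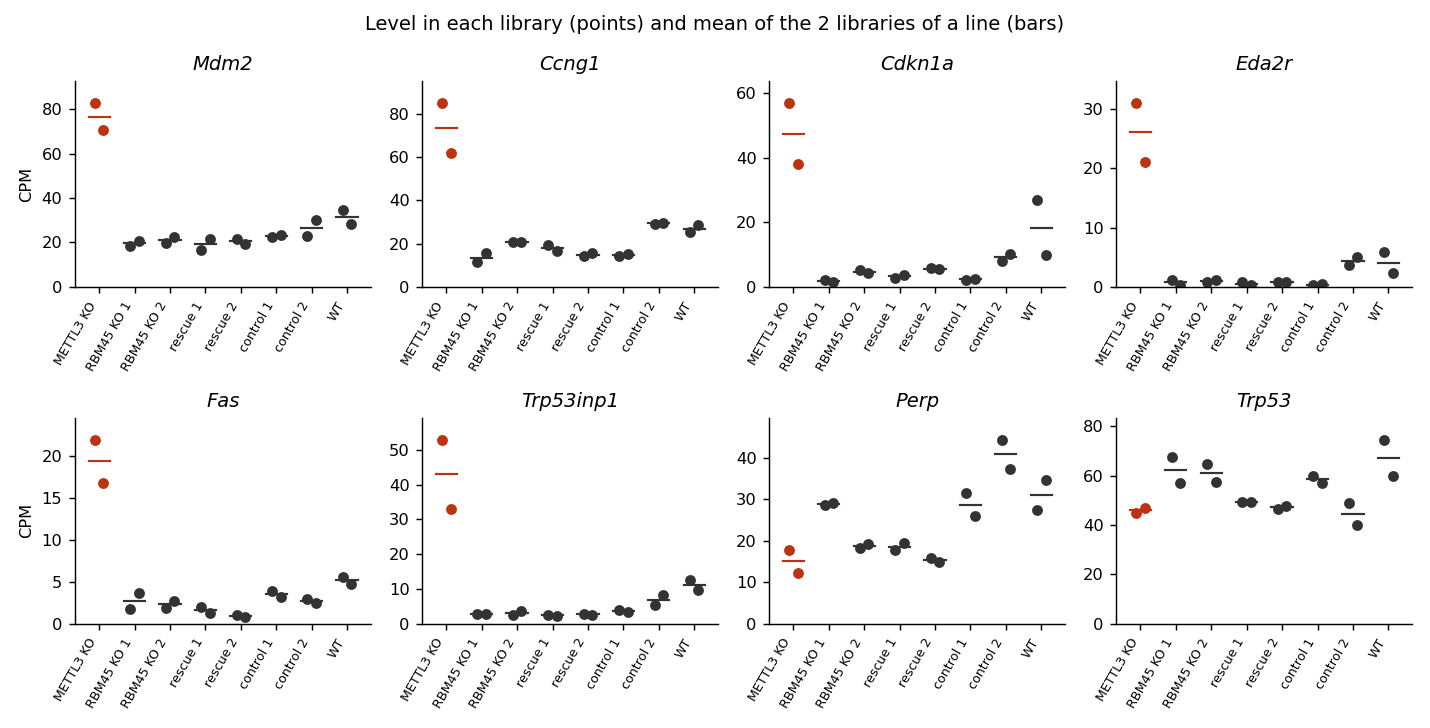
CPM of 8 of the genes in every library (points; bars are the mean of the 2 libraries of a line), with METTL3 KO in red at the left and WT at the right. Mdm2, Ccng1, Cdkn1a, Eda2r, Fas and Trp53inp1 are highest in both METTL3 KO libraries, Perp lies at 17.8 and 12.2 CPM there, and Trp53 at 45.0 and 47.1 CPM lies within the range of the clones.

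Set against the 4 Cas9 control libraries, the METTL3 KO line had 20 members higher and 3 lower, where 16.1% of all genes were higher and 14.5% lower. The members' median log2 change was 0.80, against 0.01 over all genes. This comparison uses the same METTL3 KO libraries as the one with WT, so the pair are not independent. In it 19 members were called in each of the 6 fits that left out 1 library. Trp53 did not pass, with 45.0 and 47.1 CPM in METTL3 KO and 60, 57.1, 48.9 and 40.0 CPM in the controls (log2 change -0.15 ± 0.12), and the groups overlapped. Mdm2 rose by a log2 change of 1.63 ± 0.13 (adjusted p = 5.64e-08), with 22.5, 23.5, 22.8 and 30.1 CPM in the controls. Cdkn1a rose by 3.31 ± 0.26 (adjusted p = 3.16e-08), with 2.24, 2.56, 8.15 and 10.2 CPM in the controls. Each METTL3 KO library of both genes exceeded every control library. Eda2r (log2 change 4.27 ± 0.29), Ptp4a3 (3.92 ± 0.28), Trp53inp1 (3.10 ± 0.19) and Fas (2.66 ± 0.21) rose as well.

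Bbc3, Bax and Tnfrsf10b passed here and had not passed against WT; the difference between these comparisons was not tested. Bbc3 had 1.56, 1.2, 1.89 and 1.56 CPM in the controls, below both METTL3 KO libraries, and its log2 change was 1.96 ± 0.30 (adjusted p = 9.42e-05). Bax (0.67 ± 0.21, adjusted p = 0.0199) and Tnfrsf10b (0.95 ± 0.20, adjusted p = 0.00148) also passed. Bax lost its call without control clone 1 replicate 2, control clone 2 replicate 2 or METTL3 KO replicate 1. Gdf15 and Cd82 were called higher too. Both were at 0 in control clone 1, so no fold is given. For Cd82, METTL3 KO at 2.025 and 1.219 CPM overlapped control clone 2 at 1.193 and 1.494 CPM. Gdf15 was not called by the DESeq2 test. Perp again fell, with a log2 change of -1.22 ± 0.15 (adjusted p = 1.28e-05). Mdm4, called higher against WT, was not called here (log2 change 0.33 ± 0.13, adjusted p = 0.056). Both METTL3 KO libraries of Mdm4 still lay above every control library. Ccnd1 and Plk2, called lower against WT, were not called here either. Ccnd1 had 92.3 and 91.1 CPM in METTL3 KO, above the controls at 70.3, 67.2, 87.9 and 74.5 CPM. Plk2 had 41.5 and 41.6 CPM in METTL3 KO, within the control range of 35.5 to 55.1 CPM. Phlda3 (0.54 ± 0.14) lost its call without METTL3 KO replicate 1. The falls of Rrm2b (-0.48 ± 0.18) and Xpc (-0.50 ± 0.17) were lost without either METTL3 KO library or control clone 2 replicate 1, that of Rrm2b also without control clone 1 replicate 2 and that of Xpc without control clone 1 replicate 1. The DESeq2 test called neither of them.

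The Cas9 control clones themselves lay below WT for many members. Of the 32, 2 were higher in the controls and 10 lower, where 3.19% of all genes were higher and 5.79% lower, and the members' median log2 change was -0.32 against 0 over all genes. Cdkn1a had 2.24 and 2.56 CPM in control clone 1 and 8.15 and 10.2 CPM in control clone 2, against 26.8 and 9.79 CPM in WT, so control clone 2 overlapped WT. Its log2 change was -1.91 ± 0.29 (adjusted p = 0.000373) and -1.05 without WT replicate 1. Bbc3, at the control levels given above, had a log2 change of -2.06 ± 0.32, and -1.19 without WT replicate 1. Ptp4a3 (-2.21 ± 0.34), Ccnd1 (-0.81 ± 0.12) and Cd82 were the other members called lower in each fit with 1 library left out. For Cd82, control clone 1 was at 0, while control clone 2, at 1.19 and 1.49 CPM, overlapped WT at 1.3 and 1.7 CPM. Eda2r in control clone 2 (3.68 and 4.96 CPM) likewise overlapped WT (5.90 and 2.30 CPM). Trp53inp1, Plk2, Eda2r, Aen and Trp53 made up the rest of the lower calls, and Mdm4 (0.55 ± 0.14) and Rrm2b (0.63 ± 0.19) were higher. Trp53 had a log2 change of -0.40 ± 0.12 (adjusted p = 0.0481), and Mdm2, at -0.34 ± 0.14, did not pass (adjusted p = 0.158). Without WT replicate 1 the count was 0 higher and 5 lower, with a log2 change of -0.04 for Plk2 and -0.78 for Eda2r, and without control clone 1 replicate 2 it was 7 in all. Calls lost without WT replicate 1 were those of Trp53inp1, Plk2, Eda2r, Aen, Trp53, Mdm4 and Rrm2b. The Eda2r and Trp53 calls were lost without control clone 1 replicate 1, those of Plk2, Aen, Trp53, Mdm4 and Rrm2b without control clone 1 replicate 2, and that of Rrm2b without control clone 2 replicate 1. Those of Aen, Trp53, Mdm4 and Rrm2b were lost without control clone 2 replicate 2.

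Clones of 1 genotype differed from each other in p53 targets too. Between the Cas9 controls, 9 members were higher and 1 lower in clone 2 than in clone 1, where 9.96% of all genes were higher and 9.61% lower. The median log2 change was 0.21, also with Cd82 and Gdf15 at the bounds given below, against -0.01 over all genes. Eda2r had 3.68 and 4.96 CPM in clone 2, against 0.311 and 0.470 CPM in clone 1 (log2 change 3.43 ± 0.50, adjusted p = 8.99e-05). Cdkn1a, at the levels given above, had a log2 change of 1.94 ± 0.37 (adjusted p = 0.00122). Ccng1 had 29.0 and 29.5 CPM in clone 2, against 14.3 and 15 CPM in clone 1 (0.99 ± 0.16, adjusted p = 0.00029). In each of these genes both clone 2 libraries lay above both clone 1 libraries, as they did for Psrc1 (1.68 ± 0.32) and Trp53inp1 (0.97 ± 0.27). Cd82 had 12 and 22 counts in the clone 2 libraries and 0 in both clone 1 libraries, which makes it at least 16.1-fold higher against a floor of 3 counts over the clone 1 libraries together (adjusted p = 7.26e-05). Gdf15 had 10 and 4 counts in clone 2 and 0 in clone 1, at least 6.63-fold higher against the same floor (adjusted p = 0.0489), and was called in 1 of the 4 fits with 1 library left out: its call was lost without either clone 1 library and without clone 2 replicate 1. These floors cover counting error in clone 1 alone. The clone 2 counts were taken as observed, so their own error is not in these bounds. Perp (0.51 ± 0.16) and Ddb2 (0.71 ± 0.22) were the other rises. Perp lost its call without clone 1 replicate 2 or clone 2 replicate 1, Trp53inp1 without either second replicate, and Ddb2 without either clone 1 library or clone 2 replicate 2. Ptp4a3 went against the rest, with 0.696 and 0.611 CPM in clone 2, against 3.99 and 3.55 CPM in clone 1 (-2.52 ± 0.47, adjusted p = 0.000984). Trp53 (-0.40 ± 0.14, adjusted p = 0.0526) and Mdm2 (0.21 ± 0.16) did not pass.

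Between the RBM45 KO clones, 2 members were higher and 6 lower in clone 2, where 6.49% of all genes were higher and 7.65% lower. The median log2 change was -0.01, against 0 over all genes. Ptp4a3 had 0.839 and 0.682 CPM in clone 2, against 5.38 and 6.64 CPM in clone 1 (log2 change -2.98 ± 0.45, adjusted p = 0.000136). Ccnd1 had 185 and 159 CPM in clone 2, against 104 and 81.3 CPM in clone 1 (0.90 ± 0.15, adjusted p = 0.000329). Mdm4 had 26.9 and 29.6 CPM in clone 2, against 46.6 and 52.5 CPM in clone 1 (-0.81 ± 0.15, adjusted p = 0.00126). These 3 genes, whose clones did not overlap, were called whichever library was left out. Perp had 18.3 and 19.2 CPM in clone 2, against 28.6 and 29.0 CPM in clone 1, and Ccng1 had 20.9 and 20.6 CPM in clone 2, against 11.4 and 15.4 CPM in clone 1 (adjusted p = 0.0186 and 0.0212). Perp, Gtse1, Ercc5 and Apaf1 lost their calls whichever library was left out, and Ccng1 was called in the fit without clone 1 replicate 2 but in none of the other 3. The count was 3 without clone 1 replicate 1 or clone 2 replicate 2, and 4 without clone 1 replicate 2 or clone 2 replicate 1. Trp53 (-0.03 ± 0.14), Mdm2 (0.11 ± 0.17) and Cdkn1a (1.37 ± 0.47, adjusted p = 0.062) did not pass.

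The KO rescue clones gave no call, where 2.29% of all genes were called between them. Neither edgeR nor DESeq2 called a member. An unadjusted p under 0.05 was found for 2 of the 32 with edgeR, as for 10.9% of all genes, and for 1 with DESeq2, as for 3.97% of all genes. Trp53 had 46.3 and 47.9 CPM in clone 2 and 49.4 and 49.5 CPM in clone 1, Mdm2 had 21.6 and 19.4 CPM in clone 2 and 16.6 and 21.6 CPM in clone 1, and Cdkn1a had 5.77 and 5.58 CPM in clone 2 and 2.87 and 3.81 CPM in clone 1. The Cdkn1a clones did not overlap, with a log2 change of 0.79 ± 0.38 (adjusted p = 0.467).

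**Figure D5:**
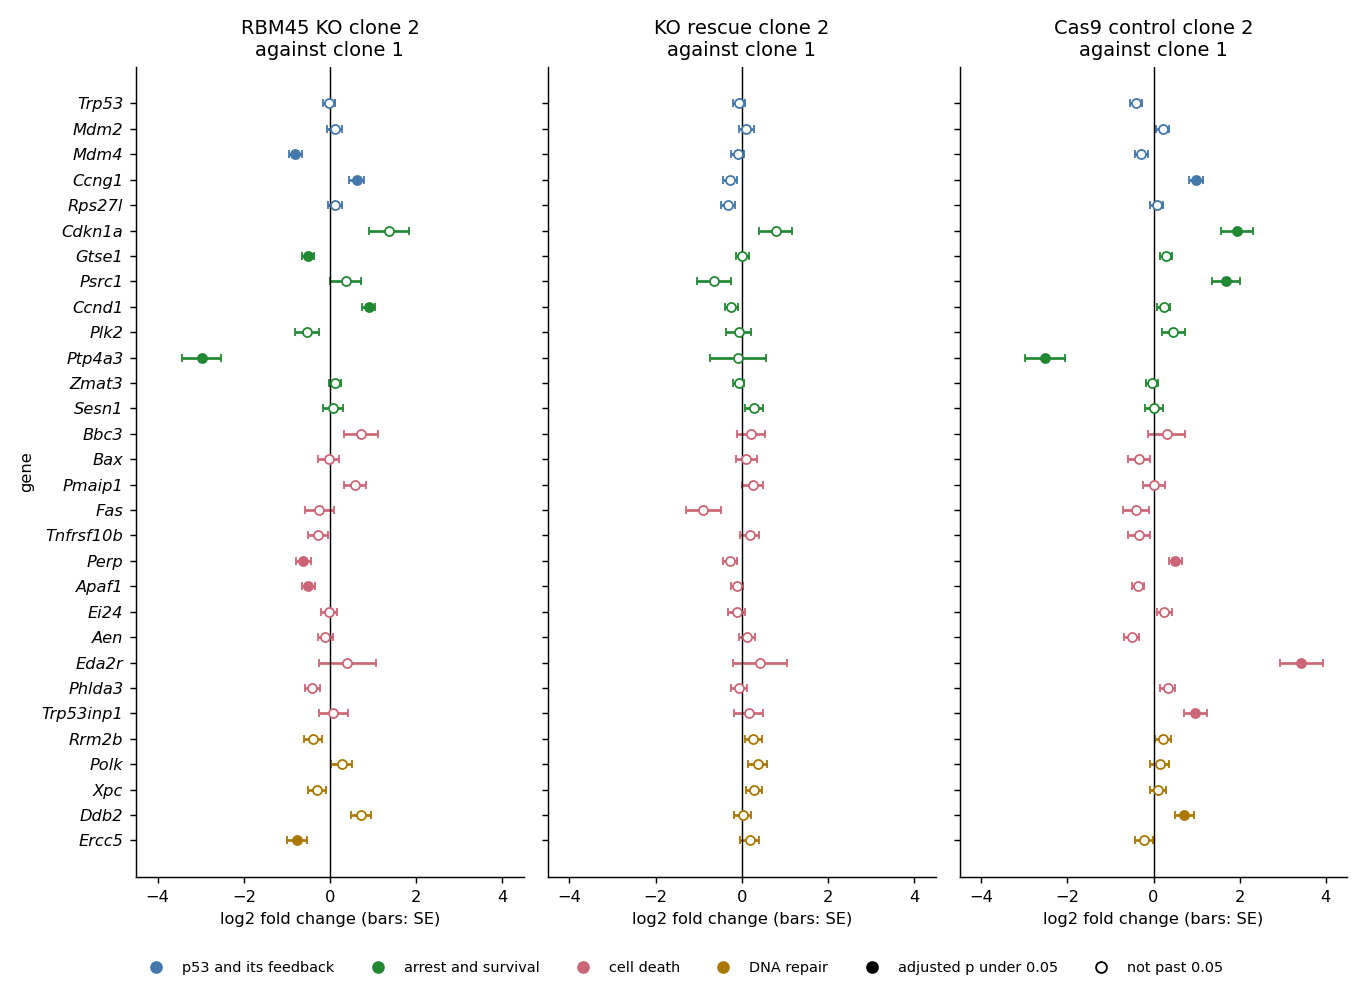
Log2 fold change of clone 2 over clone 1 (points, with the standard error as bars) for 30 of the genes within RBM45 KO, KO rescue and the Cas9 controls; filled points passed an adjusted p of 0.05 and colours give the role. Gdf15 and Cd82, which are at 0 in some clones, are not drawn. Ptp4a3 lies at -2.98 within RBM45 KO and at -2.52 within the controls, and no point is filled within KO rescue.

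Ptp4a3 thus split the clones across genotypes, with 3.55 to 6.64 CPM in RBM45 KO clone 1 and control clone 1 and 0.221 to 1.19 CPM in the other 4 clones. The summed mesenchymal markers were also highest in these clones, at 1960 and 1750 CPM in RBM45 KO clone 1 and 1530 and 1410 CPM in control clone 1, against 617 to 906 CPM in the other clones. Col1a1 carried that sum, averaging 1400 CPM in RBM45 KO clone 1 and 1050 CPM in control clone 1, against 31.6 to 142 CPM in the other clones. Acta2 averaged 374 and 332 CPM in these clones, against 445 to 655 CPM in the others, and Thy1 averaged 0.151 and 0.0522 CPM, against 2.65 to 19.1 CPM, so these markers were lower there. The part of these markers was not tested. Single pairs of clones gave very different counts. RBM45 KO clone 1 against control clone 1 had 0 members called, where 0.771% of all genes were called. Against control clone 2 the same clone had 4 members higher and 7 lower (18.4% of all genes called). RBM45 KO clone 2 had 5 higher and 5 lower against control clone 1 (17.2%) and 3 higher and 9 lower against control clone 2 (25.5%). No member was called the same way in all 4 pairs, where 0.105% of all genes were.

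With clones as units, RBM45 loss gave no call among the members. The counts of the 2 libraries of a clone were added, 6 clones shared 1 spread with 3 residual degrees of freedom, and 30 of the 32 members passed the filter (all but Gdf15 and Cd82). In RBM45 KO against control 0 members passed with edgeR or with DESeq2, and edgeR called 0% of all genes and DESeq2 4 genes (0.013%). Of the members, 4 had an unadjusted edgeR p under 0.05, where 5.83% of all genes did. The smallest adjusted p of a member was 0.754, and the median log2 change was -0.18 against -0.01 over all genes. The 5 members with the smallest p are described although none passed.

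Aen had 18.6 and 18.6 CPM in RBM45 KO clone 1 and 16.7 and 17.8 CPM in clone 2, against 16.5 and 11.9 CPM in control clone 1 and 9.74 and 10.1 CPM in control clone 2 (log2 change 0.59 ± 0.20). Every RBM45 KO library lay above every control library. Ccnd1, at the RBM45 KO levels given above, had 70.3 and 67.2 CPM in control clone 1 and 87.9 and 74.5 CPM in control clone 2 (0.83 ± 0.30), and RBM45 KO clone 1 overlapped control clone 2. Bbc3 had 2.15 and 2.16 CPM in RBM45 KO clone 1 and 3.69 and 3.41 CPM in clone 2, above the 4 control libraries (0.91 ± 0.33). Bax had 22.7, 15.2, 18.9 and 18 CPM in the RBM45 KO libraries, against 17.9, 13.6, 15.5 and 9.71 CPM in the controls (0.42 ± 0.17). Trp53inp1 (-0.86 ± 0.37) had 2.80 and 2.85 CPM in RBM45 KO clone 1 and 2.43 and 3.49 CPM in clone 2, against 3.86 and 3.24 CPM in control clone 1 and 5.27 and 8.35 CPM in control clone 2. Both genes overlapped between the groups, and without control clone 2 the log2 change of Trp53inp1 was -0.26. Trp53 had 67.7, 57.1, 64.8 and 57.6 CPM in the RBM45 KO libraries (0.27 ± 0.17), Mdm2 had 18.5, 20.6, 19.7 and 22.5 CPM (-0.29 ± 0.15) and Cdkn1a had 2.26, 1.47, 5.20 and 4.32 CPM (-0.83 ± 0.73).

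Putting RBM45 back gave no call either. In KO rescue against RBM45 KO 0 members passed with edgeR or with DESeq2. Of all genes edgeR called 0%, and DESeq2 called 38, which is 0.971% of the 3914 to which it gave an adjusted p. Of the members, 5 had an unadjusted edgeR p under 0.05, where 7.35% of all genes did, and the smallest adjusted p was 0.662. Plk2 had 24.9 and 18.7 CPM in rescue clone 1 and 19 and 22.8 CPM in rescue clone 2, against 47.1 and 50.9 CPM in RBM45 KO clone 1 and 33.8 and 33.7 CPM in RBM45 KO clone 2 (log2 change -0.95 ± 0.25). Gtse1 had 19.1, 21.9, 22.5 and 18.9 CPM in the rescue libraries, against 37.4, 34.2, 26.0 and 24.5 CPM in the RBM45 KO libraries (-0.59 ± 0.21). Fas had 2.04, 1.27, 1.01 and 0.834 CPM in the rescue libraries, against 1.72, 3.62, 1.84 and 2.73 CPM in the RBM45 KO libraries (-0.96 ± 0.38). Plk2 and Gtse1 did not overlap between the groups, and Fas did. Phlda3 had 14.6, 13.3, 12.5 and 14.4 CPM in the rescue libraries, against 24.3, 20.5, 18.3 and 15.3 CPM in the RBM45 KO libraries (-0.51 ± 0.20). Aen had 12.9, 11.8, 12.4 and 14.5 CPM in the rescue libraries, below all RBM45 KO libraries (-0.49 ± 0.20). Trp53 (-0.36 ± 0.17), Mdm2 (-0.08 ± 0.15) and Cdkn1a (0.42 ± 0.73) did not pass.

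By clone pair, the rescue clones gave fewer calls against RBM45 KO clone 2 than against clone 1. Against RBM45 KO clone 2, rescue clone 1 had 0 members called (1.38% of all genes called) and rescue clone 2 had 1, Ccnd1, which was lower (1.78%; log2 change -0.69 ± 0.15). Against RBM45 KO clone 1, rescue clone 1 had 2 members higher and 7 lower (18.9%) and rescue clone 2 had 3 higher and 7 lower (21.5%). No member was called the same way in all 4 pairs, where 0.24% of all genes were.

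KO rescue against the controls gave no call with edgeR either. With clones as units 0 of 30 members passed with edgeR, as did 0% of all genes, and 7 had an unadjusted p under 0.05, where 15.5% of all genes did (smallest adjusted p of a member 0.276). The DESeq2 test on the same clones called 3 members, Gtse1, Plk2 and Perp, all lower in KO rescue, and 456 of all genes (2.78% of those to which it gave an adjusted p). Gtse1, at the rescue levels given above, had 35.7, 31.3, 41.6 and 39.9 CPM in the controls, and its log2 change was -0.87 ± 0.21. Plk2 had 36.6, 35.5, 43.4 and 55.1 CPM in the controls (-1.01 ± 0.25). Perp had 17.8, 19.4, 15.8 and 14.9 CPM in the rescue libraries, against 31.5, 25.9, 44.3 and 37.3 CPM in the controls (-1.03 ± 0.27). Every rescue library of these 3 genes lay below every control library. Phlda3 had 21.1, 19.9, 28.4 and 23.2 CPM in the controls (-0.74 ± 0.20), above all rescue libraries. Bbc3 had 3.42, 3.73, 4.09 and 4.17 CPM in the rescue libraries, more than in any control library (1.32 ± 0.33). Trp53 (-0.09 ± 0.17), Mdm2 (-0.37 ± 0.15) and Cdkn1a (-0.41 ± 0.72) did not pass.

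Taking all 4 pairs of a rescue clone with a control clone at the spread of libraries, Ccnd1 and Bbc3 were higher and Gtse1, Perp and Phlda3 lower in every pair, 5 of 32 members where 7.51% of all genes were called in every pair. This count was 3 with the DESeq2 test and 3 with summed exon bins. It fell to 1 without rescue clone 1 replicate 1. It was 2 without rescue clone 1 replicate 2 or either library of control clone 1, and 3 without control clone 2 replicate 2 or either library of rescue clone 2. The 3 RBM45 comparisons share clones pairwise, so their values are given side by side and were not combined.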

How the data were processed

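Ribosome-depleted RNA of 16 libraries was aligned with HISAT2 2.1.0 to mm10, per the submitters' processing notes, and read counts per gene and per exon bin were made by the authors with featureCounts 1.6.3, per the file headers (1.6.5 in the notes), on the Ensembl 98 annotation. The gene rows of the deposited count table span whole gene bodies with introns, multi-mapping reads are left out, and a read that overlaps several rows counts for each, per the file headers. Counting was strand-specific, per the file headers, although the kit does not mark strand. The labels match 12 of the count columns; the other 4 were taken as the Cas9 controls, and clone numbers of control and rescue are names only. No column was left unused (0). Symbols matched 53152 of 53333 rows.

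Counts were scaled with TMM, filtered with filterByExpr and fitted with edgeR 4.0.16 (quasi-likelihood test, R 4.3.3) in 8 lines, with Benjamini-Hochberg adjustment over all genes and a threshold of 0.05. For the RBM45 comparisons of gene counts with clones as units, the counts of a clone were added. For exon bins, diffSpliceDGE was run on those whose mean count reached 10, with single libraries fitted in groups of a line or clone. The fits were also run on simulated counts with 1 spread for all genes and no differences between clones. That run does not cover the spread of the real clones. Alternatives were DESeq2 1.42.0, its size factors, TMM without the 12 most abundant rows, no filter, summed exon bins, a replicate block and each library left out. Tables and plots used Python 3.11.15, pandas 2.3.3, numpy 2.4.6 and matplotlib 3.10.9. CPM here are counts scaled to the TMM-adjusted library size, whose depth limits the precision of low genes.

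The members and lists (roles, regulators of p53, further targets, cell-cycle genes, cell type markers) were chosen with earlier results of these data known. Per-library values are given for up to 8 members by smallest p in METTL3 KO against WT, up to 5 in each comparison of clones and of RBM45, for Trp53, Mdm2 and Cdkn1a throughout, and for up to 3 called genes of each other list; values of further members, and the Mdm2 bins, were added after they were seen.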

Additional observations from a re-analysis of the deposited data

Results flagged for a closer look

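Of 94 groups of 4 libraries of 1 genotype, 3 held a library whose gap to the nearest other exceeded the limit for a single outlying value among 4, where chance gives about 1 in 20 groups. The 4 libraries are 2 clones with 2 libraries each, so such a gap can also reflect the clones. Sesn1, a stress protein that restrains growth signalling, had 16.6 CPM in KO rescue clone 2 replicate 1, against 11.3, 11.4 and 11.6 CPM in the other KO rescue libraries. Eda2r had 0.318 CPM in KO rescue clone 1 replicate 2, against 0.769, 0.772 and 0.805 CPM in the other 3. Mdm2 had 30.1 CPM in Cas9 control clone 2 replicate 2, against 22.5, 22.8 and 23.5 CPM in the other control libraries, and still lay below both METTL3 KO libraries.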

How the results depend on the processing

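In METTL3 KO 20 members were called against WT and 23 against the controls; other settings gave 19 to 21 and 20 to 24 (21 and 24 with the replicate block), and leaving out 1 library gave 14 to 17 and 19 to 23. Of 1050 alternative fits of 95 single-gene changes, 0 turned the direction, 103 lost a call and 8 gained one. The count for controls against WT (12) ran from 5 to 14 with 1 library left out, and that between the RBM45 KO clones (8) from 3 to 4. Without the filter on low counts, 1 member was called between the rescue clones and 1 in all pairs of rescue and RBM45 KO clones, against 0 each. The 5 members called in all pairs of rescue and control clones became 3 with DESeq2, 3 with summed exon bins and 1 to 4 with 1 library left out. With clones as units, rescue against control had 0 calls, but 3 with DESeq2 and 7 with the replicate block, whose units are the 12 libraries. The cause of these moves was not tested. Same-numbered libraries of different lines deviated together with r between -0.225 and 0.365 (median 0.043; over 0.1 in 11 of 28 pairs of lines). Among METTL3 KO, WT and the control clones all 6 pairs of lines exceeded 0.1 (0.121 to 0.365). Each line has only 2 numbers and the labels tie them to no shared source, so they were not taken as pairs. With the block, controls against WT had 14 calls, control clone 2 against clone 1 had 12 and the RBM45 KO clones 10, against 12, 10 and 8. Depth limits Gdf15 and Cd82, with at most 23 and 22 counts in a library.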
